A study of Mus musculus with 8 samples.

Results

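The genes of MHC class II antigen presentation were followed in mouse medial prefrontal cortex (mPFC), across 4 groups of RNA samples. The 6 genes were fixed by name: H2-Aa, H2-Ab1, H2-Eb1, H2-DMa, Cd74 and Ciita. A gene was measured where the platform annotation gave a probe set its symbol and no other, and with several such probe sets the one with the highest mean over the 8 arrays was taken. This left 5 of the 6 genes, among 22180 genes named in the same way. Cd74, the invariant chain, had 1 probe set, which the annotation shares with a second symbol, so no value is given for it.

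There were 4 groups of 2 Affymetrix arrays each. The first was RNA pulled down with GFP-trap, a reagent that binds green fluorescent protein (GFP), from mPFC of mice injected with CAV2-Cre in VTA. The second was the same pull-down from mice injected in NAC. The remaining groups were unpurified mPFC input RNA, from VTA-injected and from NAC-injected mice. All mice carried a ribosomal tag with GFP that Cre recombinase switches on, and all received the virus. CAV2-Cre is a canine adenovirus that delivers Cre and is taken up at axon terminals, so the tag marks mPFC cells that project to the injected region. VTA and NAC are the usual short names of the ventral tegmental area and the nucleus accumbens. None of the groups was uninjected, and the labels used here give no strain, age or sex. Nothing in the labels ties the 2 arrays of a group to different animals, so the p-values reflect only the spread between these samples, and that spread may be technical. Nor do the labels say which pull-down and input share tissue.

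MHC class II molecules are pairs of an alpha and a beta chain that carry peptides from endosomes to the cell surface, where CD4+ T cells read them. H2-Aa and H2-Ab1 are the chains of mouse I-A, and H2-Eb1 is the beta chain of I-E. Cd74 holds new pairs until proteases of the endosome cut it away, H2-DM (H2-DMa with a beta partner) then exchanges the last Cd74 fragment for a peptide, and H2-O (H2-Oa with H2-Ob) restrains H2-DM. Ciita is the coactivator that switches these genes on. It binds no DNA itself and docks on the factors RFX, NF-Y and CREB, which sit on the X and Y boxes of class II promoters. In the brain, class II is known mainly from microglia, from macrophages of the borders and from immune cells that enter, and interferon-gamma is a known inducer.

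H2-Ab1 lies on chromosome 17 at 34263227 to 34269418 of the assembly GRCm38.p6, H2-Aa at 34282744 to 34287823, H2-Eb1 at 34305867 to 34316674 and H2-DMa at 34119693 to 34139101. Ciita lies on chromosome 16 at 10480014 to 10531064. A RefSeq table of that assembly held promoter windows of 250 bases before to 50 bases after the start for H2-Aa, H2-Eb1 and H2-DMa, and for H2-Oa. The windows of the 3 genes that hold an extended Y box are shown so that their matches to X and Y box letters can be compared. The X1 letters matched in H2-Eb1 and H2-Oa and not in H2-Aa. Fixed letters miss a box that is spelled otherwise, so this does not show that H2-Aa lacks an X box. H2-DMa, which was also called lower in VTA than in NAC samples, has no extended Y box in its windows. These lie at 34122582 to 34122881 and at 34125268 to 34125567, inside its span above. Other starts of H2-DMa were not searched, so whether it has the box elsewhere was not tested. Capitals mark matches to the Y box letters ATTGG or CTGATTGG, to the X1 box core AGCAAC, or to AGNNAC followed by NGATG, searched on both strands.
H2-Aa, chr17:34287774-34288073, minus strand: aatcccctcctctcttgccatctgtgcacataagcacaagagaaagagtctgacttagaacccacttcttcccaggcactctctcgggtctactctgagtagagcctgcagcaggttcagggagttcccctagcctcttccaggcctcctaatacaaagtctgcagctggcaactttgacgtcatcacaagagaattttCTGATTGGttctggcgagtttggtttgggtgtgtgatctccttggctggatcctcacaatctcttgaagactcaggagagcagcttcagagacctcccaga
H2-Eb1, chr17:34305617-34305916, plus strand: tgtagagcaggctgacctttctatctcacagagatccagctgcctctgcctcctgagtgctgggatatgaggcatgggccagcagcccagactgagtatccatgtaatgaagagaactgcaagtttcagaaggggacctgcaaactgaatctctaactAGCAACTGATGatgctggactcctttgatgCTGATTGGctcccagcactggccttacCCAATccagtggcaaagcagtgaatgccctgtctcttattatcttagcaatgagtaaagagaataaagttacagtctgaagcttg
H2-Oa, chr17:34092129-34092428, plus strand: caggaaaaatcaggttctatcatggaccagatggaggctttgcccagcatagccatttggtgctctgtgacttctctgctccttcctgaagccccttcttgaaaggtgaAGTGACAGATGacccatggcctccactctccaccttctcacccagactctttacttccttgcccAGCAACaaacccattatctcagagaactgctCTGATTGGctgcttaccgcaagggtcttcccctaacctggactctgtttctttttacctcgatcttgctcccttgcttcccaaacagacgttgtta

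CTGATTGG, which contains ATTGG, started 51 bases before the start site in H2-Aa, 62 bases before it in H2-Eb1 and 46 bases before it in H2-Oa, on the strand of the gene each time. It occurred in 4.1% of the 32851 windows of the table, and the core ATTGG in 37.4%. AGCAAC lay 92 bases before the start in H2-Eb1 and 77 bases before it in H2-Oa, 24 and 25 bases away from CTGATTGG, and 14.8% of windows hold it. AGNNAC followed by NGATG was found in H2-Eb1, where it overlaps AGCAAC, and in H2-Oa 141 bases before the start, and 0.968% of windows hold it. H2-Eb1 also had ATTGG on the opposite strand 35 bases before the start. H2-DMa had a pair of windows: 1 held none of the motifs and the other held ATTGG 198 bases before the start. The interferon element core, GAAANN followed by GAAA, was in 3.44% of windows and TATAAA in 13.6%, and neither was in the windows of these 4 genes. A match describes letters and does not show binding.

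Values are log2 as deposited, and a level is also given relative to the array median over the 22180 named genes, which was 5.86 to 5.98 on the 8 arrays. Arrays correlated at 0.981 to 0.991 within groups (4 pairs) and at 0.973 to 0.988 between groups (24 pairs), over all probe sets. Genes entered the tests if they exceeded the array median on 2 or more arrays. This left 11712 genes, and all 5 measured class II genes were among them. Tests were limma's moderated test with Benjamini-Hochberg adjustment over the 11712 genes, with a threshold of 0.05. The number of arrays, 2 per group, limits the precision. In tissue RNA and in pull-downs from it, fewer cells of a type and less RNA per cell cannot be told apart.

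The 4 structural class II genes measured were lower in VTA than in NAC samples, in the pull-downs and in the inputs alike, and Ciita passed the test in neither. H2-Ab1 was 9.08-fold lower in VTA pull-downs and 9.50-fold lower in VTA inputs than in the NAC samples of the same kind. H2-Eb1 was 2.10-fold and 3.20-fold lower, and H2-DMa 1.40-fold and 1.47-fold lower. H2-Aa was 7.87-fold and 7.39-fold lower by the deposited values, which are not exact sizes because it lay near or under the array median in VTA samples and met the filter only through the NAC arrays. Thus 4 of 5 genes were called lower in each comparison. Of the 11712 genes, 2.05% were called lower and 0.418% higher in the pull-downs, and 1.38% lower and 0.12% higher in the inputs. The filter favoured the call of H2-Aa in advance, and the genes were chosen with earlier results of these data known. The count is therefore a description and not a test of the set.

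H2-Ab1, the beta chain of I-A, had log2 values of 6.64 and 6.43 in VTA pull-downs, against 9.77 and 9.67 in NAC pull-downs. In the inputs it had 7.01 and 7.07 with VTA, against 10.40 and 10.19 with NAC. Every VTA array lay below every NAC array, by at least 2.60 on the log2 scale, and all 8 arrays lay above their medians. The VTA minus NAC difference was -3.18 in pull-downs (SE 0.11, 95% interval -3.43 to -2.93, limma adjusted p = 6.58e-07) and -3.25 in inputs (SE 0.11, limma adjusted p = 5.36e-07). By p-value, H2-Ab1 ranked 1 of the 11712 genes in both comparisons.

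H2-Aa, the alpha chain of I-A, had 4.85 and 5.58 in VTA pull-downs, against 8.43 and 7.95 in NAC pull-downs. In the inputs it had 6.03 and 5.93 with VTA, against 9.22 and 8.52 with NAC. The VTA arrays again lay below all NAC arrays, but the replicates of a group were further apart than those of H2-Ab1, with an SD of 0.51 in VTA pull-downs and 0.50 in NAC inputs. Both VTA pull-downs and 1 VTA input lay under their array medians, so the size of the difference is not exact. It was -2.98 in pull-downs (SE 0.27, limma adjusted p = 0.000165) and -2.89 in inputs (SE 0.27, limma adjusted p = 0.000181).

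H2-Eb1, the beta chain of I-E, had 7.33 and 7.08 in VTA pull-downs, against 8.30 and 8.25 in NAC pull-downs. In the inputs it had 6.83 and 7.02 with VTA, against 8.47 and 8.74 with NAC. The NAC arrays were all higher than the VTA arrays, by 0.92 between the nearest. The difference was -1.07 in pull-downs (SE 0.13, limma adjusted p = 0.00122) and -1.68 in inputs (SE 0.13, limma adjusted p = 3.57e-05).

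H2-DMa, the alpha chain of the peptide exchange factor, had 7.48 and 7.60 in VTA pull-downs, against 8.04 and 8.01 in NAC pull-downs. In the inputs it had 7.48 and 7.42 with VTA, against 7.97 and 8.05 with NAC. Its groups did not overlap between the targets. The difference was -0.48 in pull-downs (SE 0.09, 95% interval -0.69 to -0.28, limma adjusted p = 0.0228) and -0.56 in inputs (SE 0.09, 95% interval -0.76 to -0.35, limma adjusted p = 0.0121). The call was lost under 6 of 17 alternatives in pull-downs (limma adjusted p up to 0.145) and under 5 of 17 in inputs (up to 0.165), among them leaving out NAC pull-down 1, NAC pull-down 2 or VTA pull-down 1 for the pull-downs and any 1 of the 4 inputs for the inputs.

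Ciita, the coactivator, had 6.07 and 6.05 in VTA pull-downs, against 5.95 and 6.05 in NAC pull-downs, and these groups were 0.0004 apart at their nearest arrays. In the inputs it had 5.72 and 5.65 with VTA, against 6.03 and 6.42 with NAC. The VTA inputs lay under their array medians and the other 6 arrays a little above theirs. The difference was 0.06 in pull-downs (SE 0.13, 95% interval -0.22 to 0.34, limma adjusted p = 0.86) and -0.54 in inputs (SE 0.13, 95% interval -0.82 to -0.26, limma adjusted p = 0.0832). The input difference passed under 2 of 17 alternatives, among them leaving out NAC input 1 (-0.74, limma adjusted p = 0.0244).

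**Figure D1:**
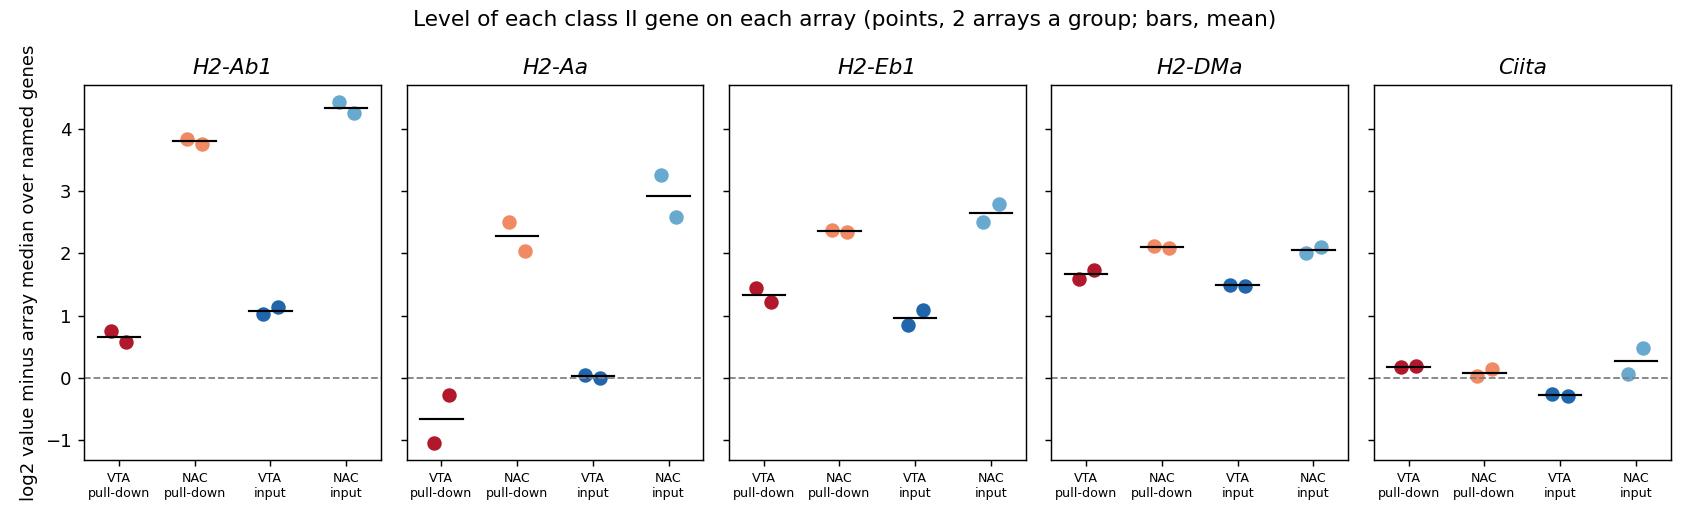
Log2 value minus the array's median over named genes (vertical axis) for the 5 measured class II genes in each group, with 1 point per array and a bar at the mean of 2 arrays. The NAC arrays of H2-Ab1, H2-Aa, H2-Eb1 and H2-DMa lie above the VTA arrays, and Ciita lies near the median, at 0, in all 4 groups.

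Relative to the array median, H2-Ab1 stood at 0.66 in VTA pull-downs, 3.80 in NAC pull-downs, 1.08 in VTA inputs and 4.34 in NAC inputs, as group means on the log2 scale. H2-Aa stood at -0.66, 2.27, 0.03 and 2.92 in the same order of groups. H2-Ab1 and H2-Aa shared 1 order of levels, NAC input over NAC pull-down over VTA input over VTA pull-down, with no overlap between neighbours. For H2-Aa the NAC inputs and NAC pull-downs were only 0.0843 apart at the nearest arrays. Its step from input to pull-down was called with neither target (limma adjusted p = 0.116 with NAC and 0.050045 with VTA). The NAC pull-downs exceeded the VTA inputs by 2.68 for H2-Ab1 and by 2.21 for H2-Aa. H2-Eb1, at 1.33, 2.36, 0.96 and 2.65, had the VTA pull-downs above the VTA inputs, with 0.06 between the nearest arrays. H2-DMa, at 1.67, 2.11, 1.49 and 2.06, did not separate NAC pull-downs from NAC inputs, which overlapped, and its VTA pull-downs and VTA inputs were 0.0016 apart at the nearest arrays. For Ciita, at 0.18, 0.08, -0.27 and 0.28, the NAC inputs overlapped the VTA pull-downs, and the VTA inputs were lowest. These levels compare groups for 1 probe set at a time, and not probe sets with each other.

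Setting pull-downs against inputs asked how much class II RNA came along with the tagged ribosomes. Averaged over both targets, H2-Ab1 fell by 0.54 on the log2 scale (SE 0.08, limma adjusted p = 0.00115) and H2-Aa by 0.72 (SE 0.19, limma adjusted p = 0.0129). H2-Eb1 had -0.02 (95% interval -0.22 to 0.17), H2-DMa 0.05 (95% interval -0.09 to 0.20) and Ciita 0.07 (95% interval -0.12 to 0.27), and none of these passed. So 2 of 5 genes were called lower and 0 higher, where 32% of all tested genes were lower and 9.6% higher, and the median of all tested genes was -0.11. A share of 2 in 5 is near that background. The call of H2-Aa was lost without NAC input 1 (-0.55, limma adjusted p = 0.0535) or without VTA input 1 (-0.70, limma adjusted p = 0.0557), and that of H2-Ab1 under none of the 16 alternatives run.

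The scale of the arrays moves these values. Of all tested genes 1124 rose and 3742 fell, while with each array centred on its median over the tested genes, a setting chosen after seeing the data, 2498 rose and 1753 fell. That scaling moved the median of all tested genes to 0.03. H2-Ab1 then had -0.40 and H2-Aa -0.59, both still called, H2-Eb1 turned to 0.11 (limma adjusted p = 0.402), and H2-DMa had 0.19 and passed (limma adjusted p = 0.0372).

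Within the VTA samples, where 25.9% of all genes were called lower and 5.44% higher, 1 class II gene was called lower and 1 higher. H2-Ab1 was lower in the pull-downs (-0.51, SE 0.11, limma adjusted p = 0.01) and Ciita higher (0.37, SE 0.13, limma adjusted p = 0.046). H2-Aa had -0.77 and an adjusted p of 0.050045, just over the threshold, H2-Eb1 had 0.28 (95% interval -0.00 to 0.56) and H2-DMa 0.09. Ciita was called under 7 of 17 alternatives, H2-Ab1 under 14 and H2-Aa, not called here, under 10 (limma adjusted p between 0.0101 and 0.311). With arrays centred on their median over the tested genes, H2-Ab1 had -0.31 (limma adjusted p = 0.0727), and Ciita, H2-Eb1 and H2-DMa were called higher, at 0.57, 0.47 and 0.28. In that setting 1719 of the 11712 tested genes were higher and 1083 lower. Without VTA input 1, or without VTA input 2, none of the 5 genes was called.

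Within the NAC samples, where 8.01% of all genes were called lower and 4.34% higher, 1 class II gene was called lower and 0 higher. H2-Ab1 was lower in the pull-downs (-0.57, SE 0.11, limma adjusted p = 0.0143), a call it kept under 13 of 17 alternatives. H2-Aa had -0.68, H2-Eb1 -0.33, Ciita -0.23 and H2-DMa 0.02, and none of these passed.

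The difference of enrichment was the pull-down minus input difference with VTA, less that with NAC. It asked whether the VTA minus NAC difference was the same in pull-downs and in inputs. A positive value means a higher VTA minus NAC value in pull-downs than in inputs. limma called 0 of the 5 genes, and at an unadjusted p of 0.05 it would call 2. These were H2-Eb1 at 0.61 (SE 0.18, 95% interval 0.21 to 1.01, limma adjusted p = 0.277) and Ciita at 0.60 (SE 0.18, limma adjusted p = 0.278). By p-value they ranked 288 and 291 of the 11712 tested genes. The share of all tested genes at that unadjusted threshold is not given here. The VTA minus NAC difference of H2-Eb1 was smaller in pull-downs (-1.07) than in inputs (-1.68). That of Ciita was 0.06 in pull-downs and -0.54 in inputs. H2-Ab1 had 0.07, with a 95% interval of -0.28 to 0.42, and H2-Aa -0.09, with an interval of -0.93 to 0.75. Over all tested genes, 0.0683% were called.

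**Figure D2:**
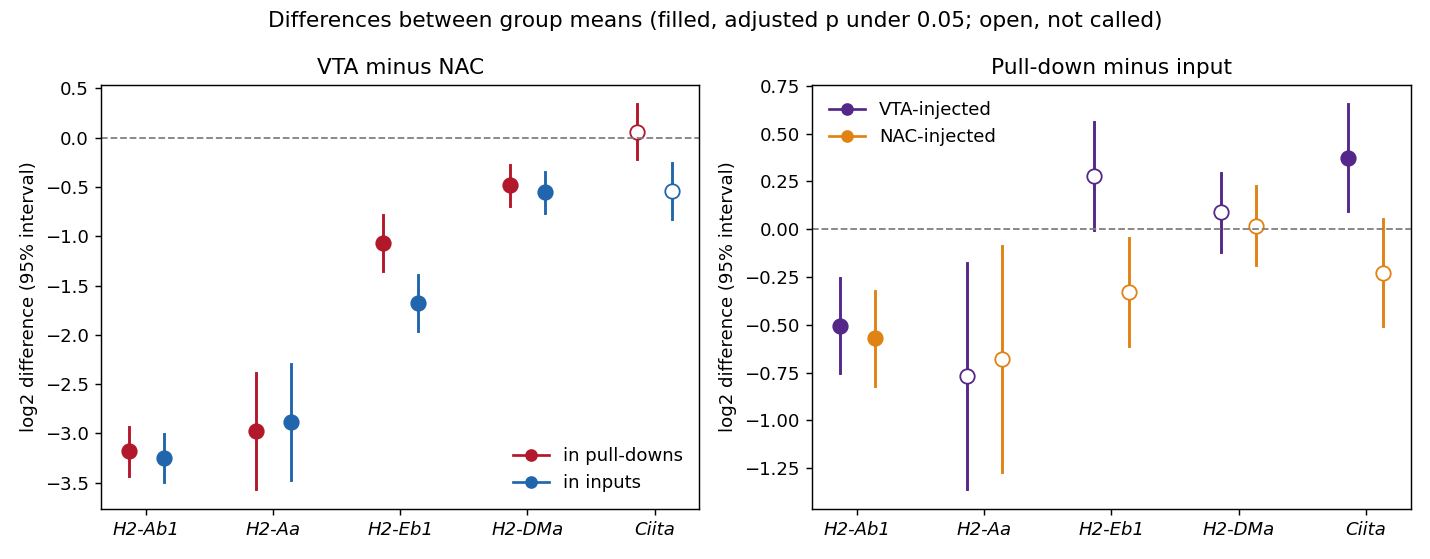
Log2 differences of group means (points) with their 95% intervals (lines) for the 5 class II genes, on the left VTA minus NAC in pull-downs and in inputs, on the right pull-down minus input in VTA-injected and NAC-injected mice. Filled points passed an adjusted p of 0.05. H2-Ab1 and H2-Aa lie near -3 on the left in both kinds of RNA, and on the right all points lie within 1 of 0.

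The remaining class II genes were H2-Ea, H2-Eb2, H2-DMb1, H2-DMb2, H2-Oa and H2-Ob. All 6 had a probe set, and 5 of them lay under the array median on all 8 arrays and were not tested. H2-DMb1 and H2-DMb2, the beta partners of H2-DMa, are near-identical copies whose probe sets may not tell them apart. H2-Oa, the alpha chain of the H2-DM inhibitor, had 5.49 and 5.48 in VTA pull-downs, against 6.77 and 6.60 in NAC pull-downs. In the inputs it had 5.84 and 5.77 with VTA, against 7.34 and 7.35 with NAC. The 4 NAC arrays lay above their medians and the 4 VTA arrays under theirs, so H2-Oa passed the filter only through the group where it is high. Its call between targets was thus favoured in advance and is no support, and its sizes are not exact. Its VTA minus NAC difference was -1.20 in pull-downs and -1.55 in inputs, given as a description. H2-Oa was also lower in the pull-downs than in the inputs (-0.32 with VTA, limma adjusted p = 0.0306, and -0.66 with NAC, limma adjusted p = 0.00463). Its order of levels was that of H2-Ab1 and H2-Aa.

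The enhanceosome, which is the set of factors that Ciita docks on, showed no called difference between targets. All 7 genes (Rfx5, Rfxap, Rfxank, Nfya, Nfyb, Nfyc and Creb1) were tested, and limma called 0 of 7 in VTA minus NAC pull-downs (median -0.03, 2 at an unadjusted p under 0.05) and 0 of 7 in the inputs (median 0.14, 1 at an unadjusted p under 0.05). The medians of all tested genes were -0.04 and 0.06. The unadjusted counts have no share of all tested genes beside them, so nothing is read from them. In pull-down minus input averaged over targets, 4 of 7 were lower and 0 higher (median -0.28), where 32% of all tested genes were lower and 9.6% higher (median -0.11): Nfya, the subunit of NF-Y that contacts DNA, at -0.50, Rfx5, the DNA-binding part of RFX, at -0.37, Rfxank at -0.32 and Nfyc at -0.28. With arrays centred on their median over the tested genes, 2 of 7 were lower and 2 higher. In that setting 1753 of the 11712 tested genes were lower and 2498 higher. The same 4 genes were lower within VTA samples, and Nfya alone within NAC samples (-0.37, limma adjusted p = 0.039). Of all tested genes, 25.9% were lower within VTA samples and 8.01% within NAC samples.

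Of 10 genes of endosomal processing, 9 were tested, and 2 were lower and 0 higher in VTA than in NAC samples, in pull-downs (median -0.23) and in inputs (median -0.28). Of all tested genes, 2.05% were lower and 0.418% higher in pull-downs, and 1.38% and 0.12% in inputs. Ctss, cathepsin S, which trims Cd74, had 8.94 and 9.12 in VTA pull-downs, against 10.08 and 10.02 in NAC pull-downs. In the inputs Ctss had 9.50 and 9.30 with VTA, against 10.76 and 10.57 with NAC. Ifi30, a thiol reductase of the endosome that interferon-gamma induces, had 5.96 and 6.27 in VTA pull-downs, against 7.45 and 7.26 in NAC pull-downs, and 6.75 and 6.92 in VTA inputs, against 8.10 and 7.91 in NAC inputs. Neither gene overlapped between the targets within a kind of RNA. The difference of Ctss was -1.02 in pull-downs (limma adjusted p = 0.000834) and -1.26 in inputs (limma adjusted p = 0.000166), and that of Ifi30 was -1.24 (limma adjusted p = 0.000543) and -1.17 (limma adjusted p = 0.000746). In pull-down minus input averaged over targets, 5 of 9 were lower and 0 higher (median -0.25), against 32% lower and 9.6% higher among all tested genes. They were Ifi30 at -0.68, Ctss at -0.49, Ctsb, cathepsin B, at -0.45, Sppl2a, a protease that clears another fragment of Cd74, at -0.32, and Lgmn, legumain, at -0.25. With the centring on the tested genes, 3 of 9 were lower, where 1753 of the 11712 tested genes were lower. The count of 5 was also not kept without NAC pull-down 2 or without NAC input 1.

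Of 8 genes of class II turnover at the surface and of co-stimulation, 5 were tested. Of all tested genes, 2.05% were lower in VTA than in NAC pull-downs, and 1.38% in inputs. Beside this, 1 of 5 was lower in pull-downs (median -0.06) and 1 of 5 in inputs (median -0.27), and none was higher. With the centring on the tested genes, 2 of 5 were lower in inputs, where 183 of the 11712 tested genes were lower. The count of 1 was also not kept without VTA pull-down 1 or without VTA pull-down 2. The gene called in both comparisons was Cd274, which codes for PD-L1, a ligand that restrains T cells. Cd274 had 6.11 and 5.89 in VTA pull-downs, against 7.59 and 7.42 in NAC pull-downs, and 6.46 and 6.04 in VTA inputs, against 8.56 and 8.36 in NAC inputs. Its differences were -1.51 in pull-downs (limma adjusted p = 0.0003) and -2.21 in inputs (limma adjusted p = 1.76e-05), and no VTA array reached a NAC array. In pull-down minus input averaged over targets, 4 of 5 were lower and 1 higher, against 32% and 9.6% of all tested genes. Cd274 was at -0.60, Icosl, a T cell co-stimulator, at -0.30, the ubiquitin ligases Marchf8 and Marchf1, which remove class II from the surface, at -0.29 and -0.27, and Cd83, which protects class II from that removal, was higher at 0.43. With the centring on the tested genes, 1 of 5 was lower and 1 higher. In that setting 1753 of the 11712 tested genes were lower and 2498 higher. The count of 4 lower was also not kept without VTA input 1.

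Of 12 genes of interferon-gamma signalling and Ciita control, 11 had a probe set and 8 were tested. In VTA minus NAC, 2 of 8 were lower in pull-downs (median -0.18) and 1 of 8 in inputs (median -0.19), and 0 were higher. Of all tested genes, 2.05% were lower in pull-downs and 1.38% in inputs. Leaving out NAC pull-down 1, NAC pull-down 2 or VTA pull-down 2 left 0 of 8 called in pull-downs, and leaving out VTA input 2 left 0 of 8 in inputs. Irf1, a transcription factor of the Ciita promoter, had 5.48 and 5.25 in VTA pull-downs, against 5.93 and 5.95 in NAC pull-downs, and 5.33 and 5.30 in VTA inputs, against 6.04 and 6.06 in NAC inputs. The 4 VTA arrays were under their medians, so Irf1 passed the filter only through the NAC arrays, and its calls between targets are no support. Its differences were -0.57 in pull-downs and -0.74 in inputs, given as a description. The other gene called in pull-downs was Irf8, a myeloid transcription factor, at -0.49. Irf8 passed the filter only through the 2 NAC inputs, and all 4 pull-downs lay under their medians, so this compares values near the floor. In pull-down minus input averaged over targets, Ifngr1, Irf8 and Jak2 were lower, at -0.35, -0.28 and -0.22, 3 of 8 with 0 higher (median -0.14). This share is near the 32% of all tested genes called lower, whose median was -0.11. Irf8 met the filter only through the NAC inputs, so its lower call in pull-downs was favoured in advance and is no support. With the centring on the tested genes, 0 of 8 were lower and 2 higher. In that setting 1753 of the 11712 tested genes were lower and 2498 higher. The count of 3 lower was also not kept without NAC pull-down 2, NAC input 1 or VTA input 1.

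**Figure D3:**
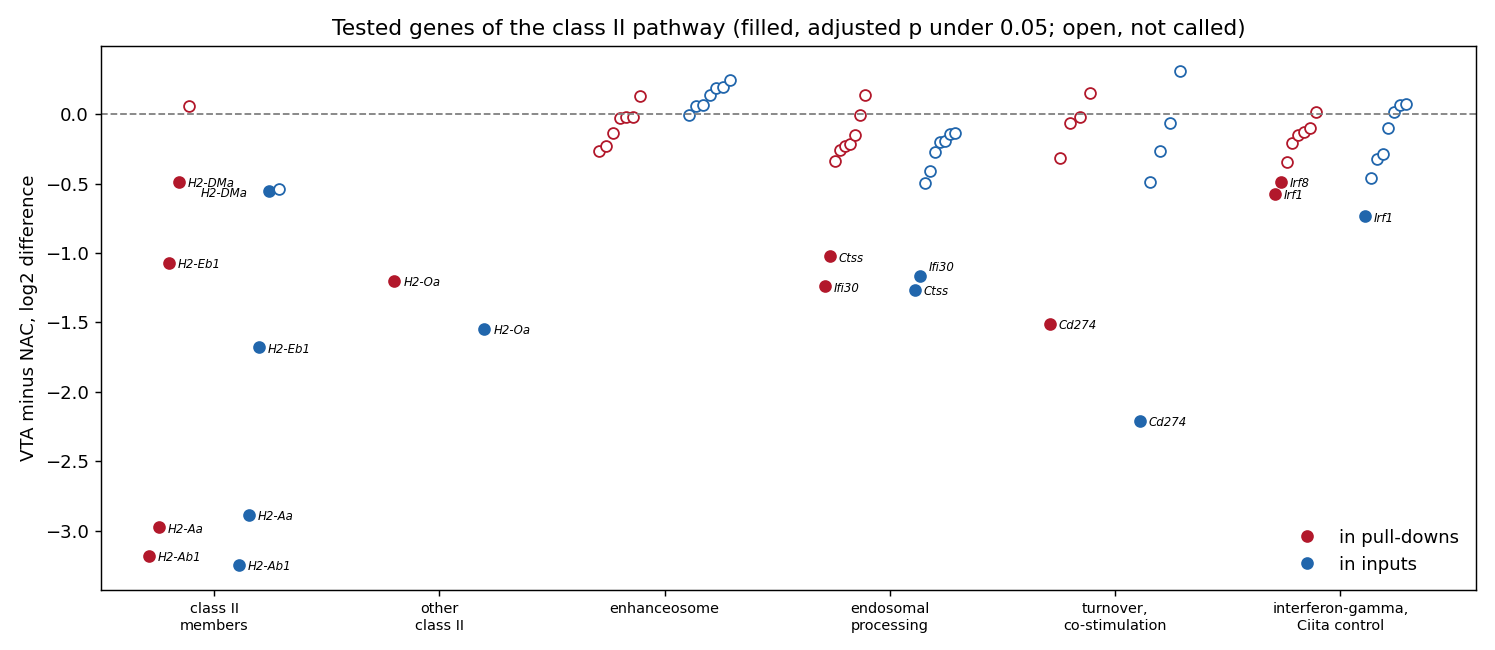
VTA minus NAC log2 difference (vertical axis) of each tested gene of 6 groups of class II pathway genes, in pull-downs and in inputs. Filled points passed an adjusted p of 0.05 and carry the gene's name, and open points did not pass. Of the class II members, H2-Ab1, H2-Aa and H2-Eb1 lie well below 0 in both kinds of RNA, as do H2-Oa, Ctss, Ifi30 and Cd274. H2-DMa lies at -0.48 in pull-downs and -0.56 in inputs. Ciita, an open point, lies at 0.06 in pull-downs and -0.54 in inputs, and the enhanceosome genes lie around 0.

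Markers of cells that can carry class II, or that read it, were set beside these results. Of 15 microglial markers, 14 had a probe set and 13 were tested. In VTA minus NAC, 2.05% of all tested genes were lower and 0.418% higher in pull-downs, and 1.38% and 0.12% in inputs. Of the microglial markers, 3 of 13 were lower and 1 higher in pull-downs (median -0.17). In inputs 4 of 13 were lower and 1 higher (median -0.33). The lower ones were the complement genes C1qa (-0.83 in pull-downs, -0.91 in inputs), C1qb (-0.78 and -0.88) and C1qc (-0.56 and -0.83), with Aif1 in inputs (-0.54), and the higher one was Fcrls, a receptor of resting microglia (0.71 in both). With 1 array left out, 1 to 4 microglial markers were lower in pull-downs (1 without NAC pull-down 2, 2 without NAC pull-down 1 or VTA pull-down 1) and 2 to 4 in inputs (2 without VTA input 1). Fcrls lost its call without NAC pull-down 1 in pull-downs, and without any 1 of the 4 inputs in inputs. The mean log2 value over the microglial list was 7.14 to 7.25 in VTA pull-downs, 7.36 to 7.40 in NAC pull-downs, 7.55 in both VTA inputs and 7.87 in both NAC inputs. Its summed level on the linear scale was 2434 to 2639, 3155 to 3363, 3339 to 3449 and 4712 to 4862 in the same groups. In pull-down minus input averaged over targets, 11 of 13 microglial markers were lower and 0 higher (median -0.39). Of all tested genes 32% were lower, with a median of -0.11. With the centring on the tested genes, 8 of 13 markers were lower. In that setting 1753 of the 11712 tested genes were lower, with a median of 0.03.

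T cell markers were at or under the median in VTA samples. Of 10, 9 had a probe set, and 9 of 9 lay at or under the median on both arrays of the VTA pull-downs and of the VTA inputs, against 5 of 9 in the NAC pull-downs and in the NAC inputs. The 4 that passed the filter did so through the NAC arrays, where they are high, so they had to differ. Cd3e, Cd3g, Cd4 and Cd8b1 were at -1.03, -2.01, -0.57 and -0.51 in VTA minus NAC pull-downs and at -1.81, -1.80, -0.82 and -1.20 in inputs. Calls of these 4 genes between targets are therefore no support, with the main setting or with an alternative, and the differences are given as a description. The summed linear level of the list was 343 to 351 in VTA pull-downs, 486 to 519 in NAC pull-downs, 324 to 326 in VTA inputs and 648 to 710 in NAC inputs.

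Other markers gave fewer calls, where 2.05% of all tested genes were lower in VTA than in NAC pull-downs and 1.38% in inputs. All 8 B cell markers with a probe set lay at or under the median on both arrays of each group, and none was tested. Of 9 border macrophage markers 1 was tested, and it was called in neither target comparison. Of 7 monocyte markers 2 were tested, and Ly6c2 was lower in VTA inputs (-1.13, limma adjusted p = 0.0441), a call lost without any 1 of the 4 inputs. Ly6c2 lay under the median on all 4 VTA arrays and passed the filter only through NAC arrays, so its call is no support. Of 11 dendritic cell markers 4 were tested, and limma called 0 in pull-downs and 0 in inputs (1 in each at an unadjusted p under 0.05). Siglech stands in this list and in the microglial list. Of 9 tested astrocyte markers, Gfap was lower in VTA pull-downs (-1.22) and inputs (-0.84). Of 7 tested endothelial markers 0 were called in either comparison (0 and 1 at an unadjusted p under 0.05), and of 9 tested glutamatergic markers Nrn1 was lower in VTA pull-downs (-0.73) and 0 were called in inputs. The unadjusted counts of these lists have no share of all tested genes beside them, so nothing is read from them. The part of microglia, T cells or other cells in the class II differences was not tested.

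**Figure D4:**
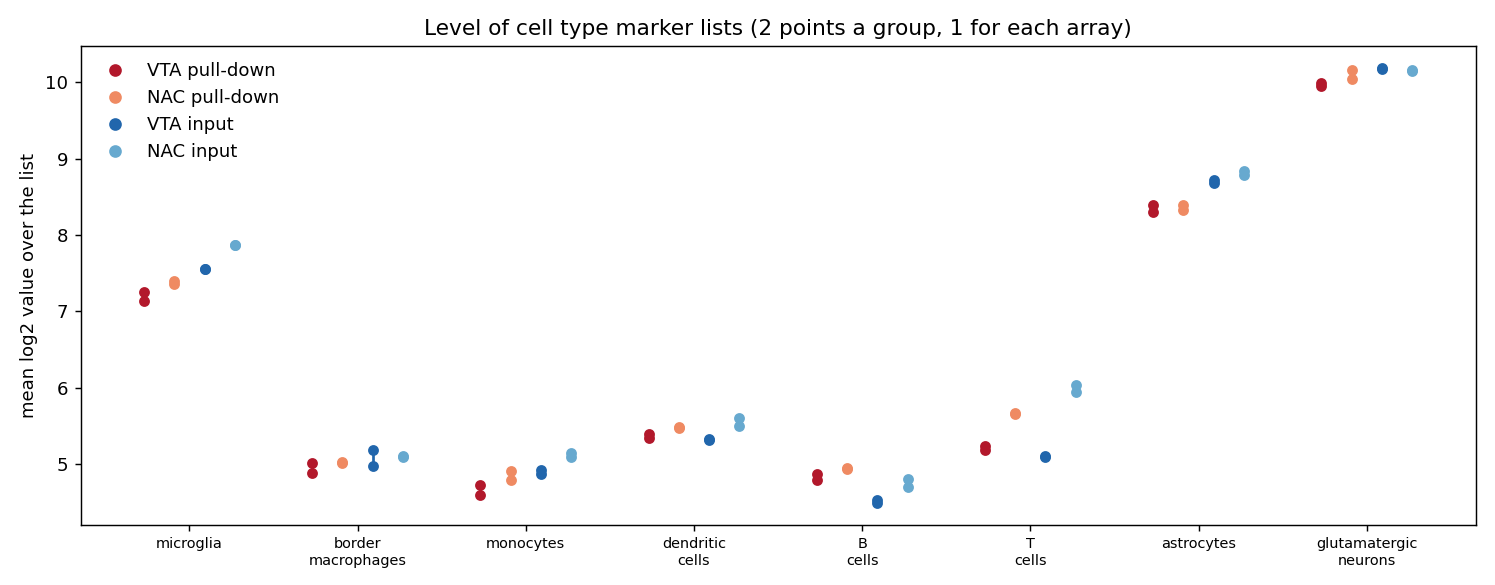
Mean log2 value over each list of cell type markers (vertical axis), with 1 point per array and 2 per group, joined. The microglial list is at 7.14 to 7.25 in VTA pull-downs and at 7.87 in NAC inputs, the T cell list is higher in both NAC groups than in both VTA groups, and the B cell list stays under 5 in all groups.

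The genes whose pattern was most like that of H2-Aa, H2-Ab1 and H2-Eb1 were ranked by Pearson's r with the mean centred profile of these 3 genes over the 8 arrays, among 1222 tested genes with an SD of at least 0.3. As the VTA and NAC arrays form separate clusters for these genes, r mostly measures that split and is given as a description. The highest were Trav9d-3, a T cell receptor segment, at 0.998, Ifit1, an antiviral effector, at 0.997, and Igkv9-120, an immunoglobulin light chain segment, at 0.997. Both segments belong to families with near-identical copies, so their names are uncertain. They were followed by Bst2, which codes for tetherin, and Igtp, an interferon-induced GTPase, both at 0.995, and by Rtp4, Klk6 and the class I heavy chain gene H2-K1, all at 0.994. Since they were chosen for this pattern, their differences are not tested here. Igkv9-120 and Klk6 lay under the array median on all 4 VTA arrays. H2-K1, which presents peptides to CD8+ T cells, had 6.89 and 7.09 in VTA pull-downs, against 8.57 and 8.60 in NAC pull-downs. In the inputs H2-K1 had 7.01 and 7.24 with VTA, against 8.95 and 9.02 with NAC.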

How the data were processed

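The authors deposited log2 values for 8 Affymetrix arrays of biotinylated cRNA, and these were used unchanged. The submitters' processing notes name Transcriptome Analysis Console for them, without a version. For the background correction and normalization nothing is stated in the sources. Of 41345 probe sets, 23521 had 1 symbol in the platform annotation, 1814 had several and 16010 had none; 23328 of the 23521 had their Entrez identifier and symbol in RefSeq GRCm38.p6. Each gene took its brightest single-symbol probe set, by mean over all 8 arrays, and was tested if at least 2 arrays exceeded their median over the 22180 named genes.

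A model of 4 group means was fitted to the 11712 genes with limma 3.58.1 in R 4.3.3 (lmFit, eBayes, 4 residual degrees of freedom), two-sided, with Benjamini-Hochberg adjustment and 6 comparisons. The fit was tested on simulated data. Named are all class II genes, of each pathway list the called genes with the 4 largest differences in a comparison (where a 5th was called it is named too, chosen after its values were seen), and the 8 genes with the most similar profile. The profile rule also held Cd74, which was left out. Members and lists were chosen with earlier results of these data known. Alternatives were the scaling, the filter, the probe set rule, an intensity trend, the samples fitted, each array left out, and a replicate block. Same-numbered arrays deviated from their group means with correlations of -0.02 (VTA pull-down and input), 0.30 (NAC pull-down and input), -0.13 (pull-downs) and 0.22 (inputs). These values do not settle whether same-numbered arrays belong together. The numbers were not taken as pairs in the main fit, and the replicate block was run as an alternative.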

Additional observations from a re-analysis of the deposited data

How the results depend on the processing

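The lower level of H2-Ab1, H2-Aa and H2-Eb1 in VTA than in NAC samples passed limma's test under all 17 alternatives run, in pull-downs (highest adjusted p 0.000419, 0.00407 and 0.0157) and in inputs (0.000131, 0.00926 and 0.00211). The number of the 5 class II genes called was 3 to 4 with 1 array left out, in pull-downs and in inputs alike, and with the replicate block it was 3 in pull-downs, 5 in inputs, where Ciita passed too (adjusted p 0.0146), and 0 for the difference of enrichment. For pull-down minus input the number was 1 to 2 with 1 array left out when averaged over targets. In VTA samples it was 2, against 1 with quantile normalization, 1 with no filter and 0 to 3 with 1 array left out. In NAC samples it was 1, against 0 with no filter, 2 with an intensity trend, 2 with the replicate block and 0 to 1 with 1 array left out. Values that did not pass changed sign as follows. H2-Eb1 averaged over targets was 0.11 with arrays centred on their median over tested genes (chosen after seeing the data), 0.0521 with quantile normalization and -0.0917 to 0.0422 with 1 array left out. Ciita averaged over targets was -0.0244 to 0.17 with 1 array left out. H2-DMa in NAC samples was -0.006 with arrays centred on their median over all probe sets and -0.0227 to 0.0576 with 1 left out. For the difference of enrichment, H2-Aa was 0.0285 with the centring on tested genes and -0.45 to 0.27 with 1 left out, and H2-Ab1 was -0.0395 to 0.17 with 1 left out. The cause was not tested. Over all tested genes, calls in VTA minus NAC pull-downs numbered 289, against 532 with the trend, 119 with only the groups compared, 113 with no filter and 151 to 335 with 1 array left out. In inputs they numbered 176, against 626 with the replicate block and 100 to 206 with 1 left out. For pull-down minus input they numbered 1446 in NAC samples, against 105 with no filter and 149 to 1848 with 1 left out, and 3671 in VTA samples, against 1907 with no filter and 415 to 3713. For the difference of enrichment they numbered 8, against 30 with the trend, 2 with quantile normalization, 1 with no filter, 1 with the replicate block and 1 to 8 with 1 left out. Averaged over targets, 717 rose and 4285 fell with arrays centred on all probe sets, and 1646 rose and 2697 fell with quantile normalization. The 2 arrays per group, and levels near the array median for H2-Aa, H2-Oa and Ciita, limit what can be told. H2-Aa and H2-Oa met the filter only through NAC arrays, so the filter favoured their calls between targets under the alternatives too.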
